A study of Mus musculus with 9 samples.

Results

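The 8 genes through which photoreceptors handle retinoids were followed across the cell types of the mouse retina and in control and miR-204/miR-211 double knockout (dKO) mice. The members were given as a list (*Abca4*, *Rdh8*, *Rdh11*, *Rdh12*, *Rdh14*, *Rbp3*, *Retsat* and *Dhrs3*), all 8 were found among the 37725 genes of the expression matrix, and together they held 728401 of its 392244816 unique molecular identifiers (UMIs, the count of distinct captured RNA molecules). The data came from split-pool single-cell RNA sequencing of 9 mice, with 2 retinas pooled per mouse, 4 mice in the control group (S01 to S04) and 5 in the dKO group (S05 to S09). All 9 mice carried RPE65-ERT2-Cre.miR-211fl.miR-204fl, so that the floxed miRNA alleles and the tamoxifen-inducible Cre were present in the controls too, and Cre was driven in the retinal pigment epithelium (RPE), not in the photoreceptors. From postnatal day 28, control mice received corn oil and dKO mice received 75 mg/kg of tamoxifen in corn oil on 5 consecutive days, and the retinas were taken 6 months later. By these labels tamoxifen was given to the dKO group only, so that the drug and the deletion cannot be told apart here. The study's text describes tamoxifen-treated, Cre-negative mice as controls, whereas the labels of these samples give corn oil and the Cre genotype, and the labels were followed. The miRNAs are not in the gene table, so that the deletion was not checked here. The study states that its mice were homozygous for the less active M450 variant of RPE65.

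In the visual cycle, light converts the 11-cis-retinal bound to opsin into all-trans-retinal, which photoreceptors must clear from the outer segment and reduce to retinol before it is sent to the RPE or to Müller glia for conversion back to the 11-cis form. The flippase ABCA4 moves the adduct of retinal and phosphatidylethanolamine across the disc membrane, short-chain dehydrogenases such as RDH8 and RDH12 reduce free all-trans-retinal, and IRBP, the secreted product of *Rbp3*, carries retinoids through the space between photoreceptors and RPE. Loss of ABCA4 or RDH12 causes inherited retinal dystrophy, with toxic retinal condensation products in the case of ABCA4.

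The miRNAs removed in the dKO share their seed, the bases by which a miRNA pairs with a target. The mature sequences are shown from RefSeq with the seed (bases 2 to 8) in capitals, because the seed is what the members' transcripts were searched for.
miR-204-5p: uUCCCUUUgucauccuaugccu
miR-211-5p: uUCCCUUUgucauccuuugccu
Of the 8 members, 1 held the DNA complement of this seed, AAAGGGA, in an annotated 3′ untranslated region, whereas 4459 of 20955 genes with such a region (21.3%) held it. That member was *Rdh14*, with a match at each of 2 positions on the plus strand of chromosome 12 (GRCm39), chr12:10445881-10445887 and chr12:10447651-10447657, shown with their surroundings and with the match in capitals.
first site: ggaatcctccAAAGGGAtattatagaa
second site: tataactgggAAAGGGAtttcatttcg
A match of letters is a description and was not tested as a binding site.

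In the current mouse annotation (GRCm39), *Abca4* lies at chr3:121838092-121973772 on the plus strand, *Rdh8* at chr9:20729799-20737413 on the plus strand and *Rbp3* at chr14:33675960-33686173 on the plus strand. *Rdh11*, at chr12:79220408-79239067 on the minus strand, and *Rdh12*, at chr12:79255647-79269440 on the plus strand, are neighbours separated by 16579 bases, and *Rdh14* lies at chr12:10440739-10450491 on the plus strand. *Retsat* lies at chr6:72575458-72585996 and *Dhrs3* at chr4:144619245-144654779, both on the plus strand. *Retsat* overlaps 3 genes on the opposite strand that are also in the matrix (*Elmod3*, *Gm45053* and *Tgoln1*), and *Abca4* overlaps 5, of which 2 are in the matrix. Whether the counting used strand is not given in the sources used here, so that the low *Retsat* counts in particular are uncertain.

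Cell types were gated from 12 lists of marker genes that hold no member. Of 31089 cells, 26710 passed exactly 1 gate, 2523 passed none, and 1856 (5.97%) passed several and were left out. The gates held 15838 rods, 2001 cones, 2221 Müller glia, 1942 ON bipolar cells, 1050 OFF cone bipolar cells, 2342 amacrine cells and 235 RPE cells, the last in adequate number in 3 control (S01, S02, S03) and 3 dKO mice (S06, S08, S09). No cell barcode was shared between mice. Total UMIs per mouse ranged from 15079143 to 66528160. Of the 9 mice, control S04 and dKO S05 and S07 stood apart from the other 6: their median depth was 4775, 4863 and 5412.5 UMIs per cell against 8118 to 10340, rods made up 70.7 to 85.5% of their cells against 32.8 to 46.1%, and their Y-linked RNA was 404 to 424 CPM (UMIs for every 1000000 UMIs counted) against 4.25 to 4.96. The labels give S06 and S07 the same animal number, although their Y-linked RNA differed (4.43 and 404 CPM). Levels below are UMIs of a gene over all UMIs of the cell type in each mouse, as CPM, and no level is corrected for transcript length, so that they compare cell types and mice and not one gene with another.

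**Figure D1:**
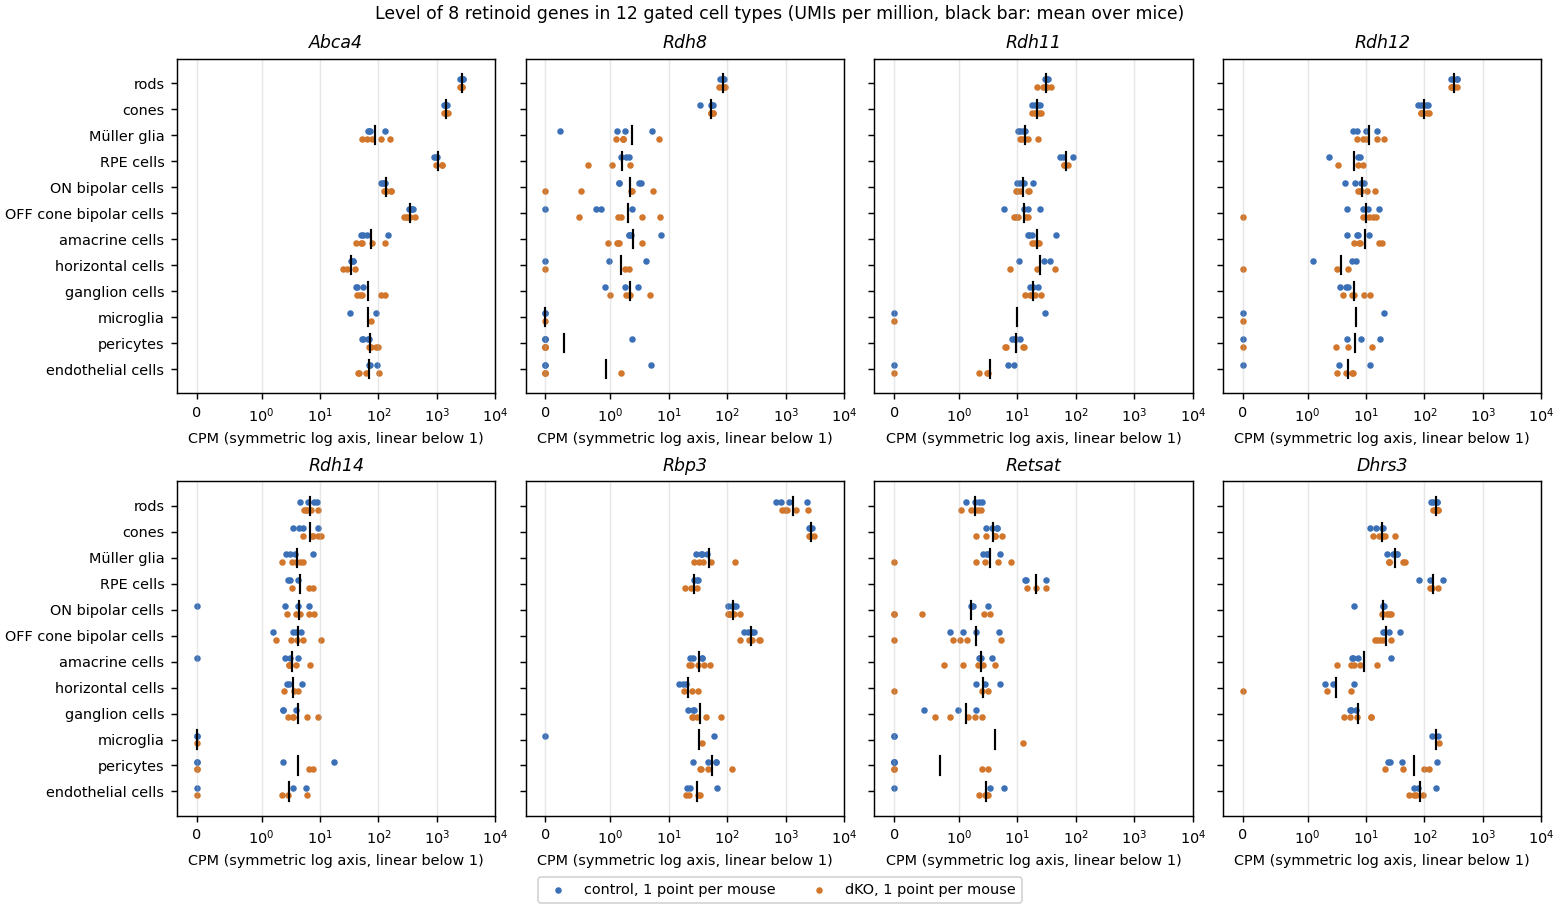
Level of each of the 8 genes (CPM, log axis) in 12 gated cell types, with 1 point for each mouse that had at least 10 cells of the type. *Rdh8* and *Rdh12* are high in rods and cones and near the bottom elsewhere, *Abca4* is also high in RPE cells, and *Rdh11* and *Retsat* are highest in RPE cells.

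The first comparison asked in which cell types the members were expressed, with cones against rods first. *Abca4*, *Rdh8*, *Rdh11*, *Rdh12* and *Dhrs3* were lower in cones than in rods, *Rbp3* and *Retsat* were higher in cones, and *Rdh14* did not pass the test. These 7 calls in 8 members stand beside a background in which 8135 of 14458 genes tested (56.3%) differed between cones and rods at an adjusted p below 0.05, so that being called is not particular to the members. Tests were edgeR quasi-likelihood tests on UMIs summed per mouse, with mouse as a block and Benjamini-Hochberg adjustment over all genes tested. Rods and cones came from the same mice, and p-values measure the spread between the 9 mice.

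*Abca4* encodes the ATP-binding cassette flippase of photoreceptor discs. Its level in rods ran from 2487 to 2838 CPM with a median of 2666 over the 9 mice, and in cones from 1313 to 1525 CPM with a median of 1404. The 2 ranges did not overlap, and every mouse had less *Abca4* in its cones than in its rods, the cone-to-rod ratio lying between 0.486 and 0.597. The difference was -0.87 on the log2 scale (95% interval -0.95 to -0.79, edgeR adjusted p = 1.34e-12).

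*Rdh12* and *Rdh8* encode all-trans-retinal reductases, RDH8 of the outer segment and RDH12 of the inner segment. *Rdh12* ran from 280.3 to 362.3 CPM in rods (median 302.0) and from 76.0 to 119.1 CPM in cones (median 94.3). All 9 cone values lay below all 9 rod values, with a median cone-to-rod ratio of 0.308 and a log2 difference of -1.66 (-1.77 to -1.55, edgeR adjusted p = 1.40e-14). *Rdh8* ran from 71.5 to 90.3 CPM in rods (median 85.1) and from 34.2 to 58.2 CPM in cones (median 53.9). These ranges did not overlap either, and the lowest cone value, in S04, stood below the other 8, which began at 52.8 CPM. The log2 difference of *Rdh8* was -0.61 (-0.75 to -0.47, edgeR adjusted p = 4.55e-07).

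*Rdh11* and *Rdh14* encode broadly expressed microsomal retinol dehydrogenases of the same family. *Rdh11* lay between 22.01 and 37.2 CPM in rods (median 30.7) and between 17.9 and 25.5 CPM in cones (median 20.6). These ranges overlapped, and within each mouse the cone level was 0.531 to 0.905 of the rod level, lower in all 9, with a log2 difference of -0.47 (-0.65 to -0.28, edgeR adjusted p = 0.00025). *Rdh14* was low in both types, at 6.75 ± 1.64 CPM in rods and 6.86 ± 2.42 CPM in cones (SD, n = 9). Cones were the higher of the 2 in 5 of 9 mice, and the log2 difference of 0.02 had an interval of -0.33 to 0.38 (edgeR adjusted p = 0.952). It turned negative under other settings, so that no direction is given.

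*Rbp3* encodes interphotoreceptor retinoid-binding protein. It ran from 2497 to 3021 CPM in cones with a median of 2639, and from 679.4 to 2407 CPM in rods with a median of 1042. Cones were higher in all 9 mice and the ranges did not overlap, but the cone-to-rod ratio varied from 1.07 to 3.75 with the rod level. The log2 difference was 1.21 (0.85 to 1.57, edgeR adjusted p = 9.13e-06), and without S04, S05 and S07 it was 1.62 (1.47 to 1.77, edgeR adjusted p = 1.29e-10, n = 6). Rods held 56.99% of all *Rbp3* UMIs and cones 24.0%, although the gates held 15838 rods and 2001 cones.

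*Retsat* and *Dhrs3* encode a retinol saturase and a reductase of all-trans-retinal that limits retinoic acid formation. *Retsat* was low, between 1.11 and 2.45 CPM in rods and between 2.00 and 5.47 CPM in cones, and the cone level was the higher in all 9 mice (log2 difference 1.07, 0.64 to 1.495, edgeR adjusted p = 0.000222). *Dhrs3* ran from 130.4 to 172.1 CPM in rods and from 11.6 to 31.9 CPM in cones, with no overlap. Its cone-to-rod ratio had a median of 0.116 and its log2 difference was -3.04 (-3.22 to -2.86, edgeR adjusted p = 3.48e-15), the lowest of the 8 members in this comparison. The mean in cones was 18.6 ± 5.9 CPM (SD, n = 9). The summed rod markers in cones were at 2.87% of their level in rods of the same mouse (mean of 9 mice, 2.42 to 3.45%), and if all of them were stray rod RNA they would bring 4.44 CPM of *Dhrs3* with them. The same 6 markers set the rod gate, at 2000 CPM or more, and cells that passed a second gate were left out, so that these markers were selected to be high in rods and kept low in every other type, and a ratio to this amount can lie above 1 for that reason alone.

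**Figure D2:**
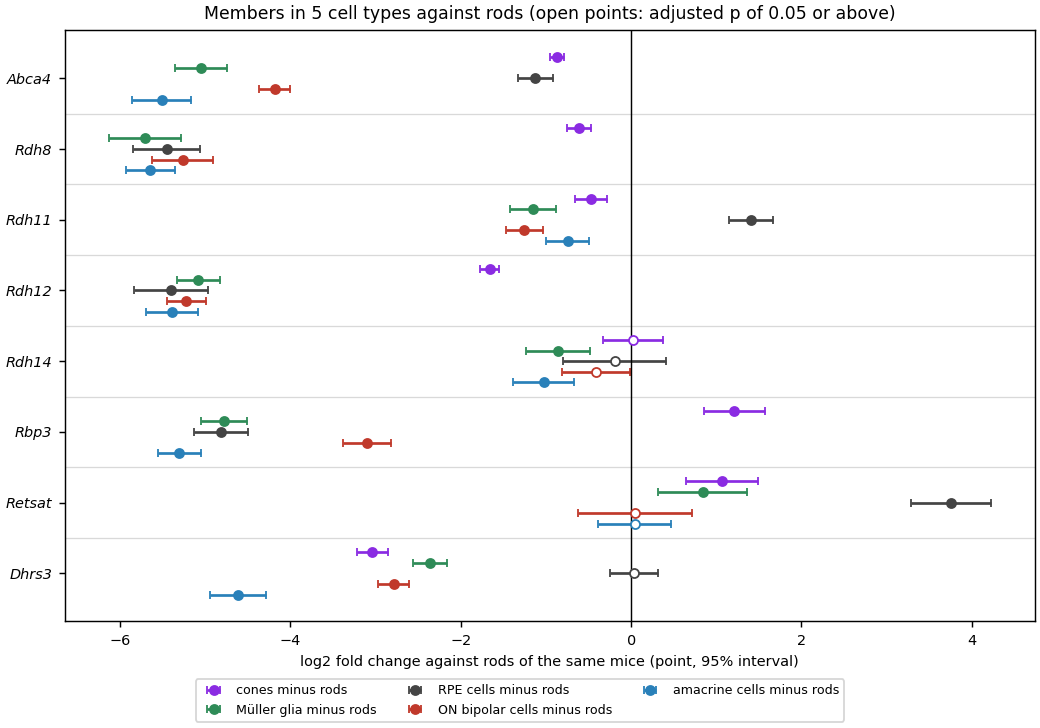
Log2 fold change of each member against rods in cones, Müller glia, RPE cells, ON bipolar cells and amacrine cells, with 95% intervals from edgeR and filled points where the adjusted p is below 0.05. *Rdh8*, *Rdh12* and *Rbp3* lie near -5 in Müller glia, RPE and amacrine cells, while *Retsat* is at 3.75 and *Rdh11* at 1.41 in RPE cells.

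Of the other cell types, Müller glia, RPE cells, ON bipolar cells and amacrine cells were each tested against rods, and not against each other. Levels in the remaining types, and ranges of types set side by side, are descriptions without a test. *Rdh11* and *Retsat* were higher in RPE cells than in rods, *Abca4*, *Rdh8*, *Rdh12* and *Rbp3* were lower, and *Dhrs3* and *Rdh14* did not pass the test, which makes 6 of 8 called where 75.6% of 14287 genes were called. The median of all genes tested was -0.15 on the log2 scale in this comparison and -0.38 with library size in place of trimmed-mean scaling, and the calls of these 6 were the same under both.

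*Abca4* in RPE cells was 983, 901 and 981 CPM in control S01, S02 and S03 and 960, 1224 and 1200 CPM in dKO S06, S08 and S09. All 6 values were below every cone value and above every OFF cone bipolar value, and the log2 difference from rods was -1.12 (-1.33 to -0.92, edgeR adjusted p = 2.98e-08). The RPE level was 39.5% of the rod level of the same mouse (mean of 6 mice), where the summed rod markers in the same cells were at 1.85% of theirs. If these markers were all stray rod RNA, *Abca4* was at 21.1 times what such RNA would bring, and at 16.5 to 29.1 times in single mice. With *Pde6b*, *Cngb1*, *Sag* and *Rom1*, rod genes that no gate uses, in place of the gate markers, the ratio was 17.4 (12.7 to 23.9 in single mice), and with the 4 cells that passed both the RPE and the rod gate added it was 18.5 (13.1 to 29.1). After each cell was thinned to 2000 UMIs, 83.5% of 224 RPE cells held an *Abca4* UMI (99.6% unthinned, median 28894.5 UMIs), against 98.9% of 14959 rods (99.8% unthinned, median 4848 UMIs) and 35.4% of 1049 OFF cone bipolar cells (74.5% unthinned, median 14409 UMIs). In ON bipolar cells the share was 19.9% (59.5% unthinned), and in the other 7 types it ran from 7.09% in horizontal cells (70.2% unthinned, median 34468 UMIs) to 14.1% in microglia (35.9% unthinned, median 6531.5 UMIs). The *Abca4* level of these 7 types was 0.897 times (horizontal cells) to 1.44 times (endothelial cells) what their rod markers would bring.

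*Rdh11* was 61.3, 89.7 and 54.1 CPM in the RPE cells of S01, S02 and S03 and 73.9, 62.2 and 61.9 CPM in those of S06, S08 and S09. Every RPE value lay above every rod value, and the log2 difference was 1.41 (1.15 to 1.67, edgeR adjusted p = 3.93e-08). *Retsat* in the same order was 30.6, 13.4 and 14.0 CPM and 31.0, 14.6 and 20.6 CPM, with a log2 difference of 3.75 (3.28 to 4.22, edgeR adjusted p = 3.26e-10). The RPE was the highest type for both genes, without overlap with the next type, which was rods for *Rdh11* and microglia for *Retsat*. The second place of microglia is not firm. Their *Retsat* mean was 4.16 ± 7.21 CPM (SD, n = 3), above what stray rod RNA would bring in 1 mouse only, and cones followed at 3.84 CPM. *Dhrs3* was 124, 81.4 and 209 CPM in control and 137, 125 and 170 CPM in dKO RPE cells. These values spanned those of rods, and the log2 difference was 0.04 (-0.24 to 0.32, edgeR adjusted p = 0.80), with a sign that changed with the scaling. Microglia (159 ± 24 CPM, SD, n = 3) and rods (155 ± 15 CPM, SD, n = 9) also had overlapping *Dhrs3* ranges, so that the order of the leading 3 types for this gene cannot be told from these values.

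*Rdh8* and *Rdh12* were low in the types other than photoreceptors. *Rdh8* had a mean of 2.49 CPM or less outside rods and cones, and *Rdh12* of 11.03 CPM or less. Compared in the same mice with what the rod markers would bring as stray RNA, *Rdh8* ranged over these 10 types from 0 in microglia to 1.41 times in amacrine cells, and *Rdh12* from 0.859 times in horizontal cells to 1.44 times in amacrine cells. In RPE cells the ratios were 1.004 for *Rdh8* and 1.08 for *Rdh12*, in Müller glia 1.11 and 1.35, and in OFF cone bipolar cells 1.08 and 1.43. Some ratios moved with the measure of stray RNA. In ON bipolar cells they were 1.19 for *Rdh8* and 1.21 for *Rdh12*, and 0.692 and 0.700 with the rod genes that no gate uses. In pericytes *Rdh8* was at 0.165 times, and at 1.02 times with the cells that also passed the rod gate added. Relative to rods, *Rdh8* and *Rdh12* differed on the log2 scale by -5.45 and -5.40 in RPE cells, by -5.71 and -5.08 in Müller glia, by -5.27 and -5.22 in ON bipolar cells and by -5.64 and -5.39 in amacrine cells. Each of these 8 differences passed the edgeR test. In the 64 gated microglia of all mice no *Rdh8* UMI was counted, which allows up to 6.63 CPM at a floor of 3 UMIs over all of them. For the mice with at least 10 microglia, on which the ratio of 0 rests, that floor is higher.

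In the mean over mice, *Rbp3* was above what the rod gate markers would bring in each of the 10 types other than photoreceptors. The ratios in this paragraph count rod RNA only, although cones held more *Rbp3* than rods. The summed cone markers had medians of 18293 (control) and 16263 CPM (dKO) in cones. They were at 75.3 and 74.0 CPM in Müller glia and at 105 and 111 CPM in RPE cells. The part of stray cone RNA in these *Rbp3* levels was not tested. The ratio was 1.103 in amacrine cells, 1.23 in ganglion cells, 1.35 in Müller glia, 1.44 in microglia, 1.53 in endothelial cells, 1.61 in RPE cells, 1.66 in horizontal cells and 1.99 in pericytes, so that the RPE did not stand apart from these types. With the rod genes that no gate uses, the RPE ratio was 1.30, above 1 in 4 of 6 mice. In bipolar cells *Rbp3* was higher. In OFF cone bipolar cells it was 261 ± 63 CPM and in ON bipolar cells 124 ± 21 CPM (SD, n = 9), or 8.76 and 4.26 times the amount the gate markers would bring, and above it in all 9 mice in both types. With the rod genes that no gate uses these ratios were 6.08 and 2.35, again above 1 in all 9 mice. With the cells that also passed the rod gate added (92 and 195 cells) they were 2.28, above 1 in 8 of 9 mice, and 1.39, above 1 in 9 of 9. *Abca4* in OFF cone bipolar cells was at 5.96 times by the gate markers, 4.38 times by the other rod genes and 2.36 times with those cells added, above 1 in all 9 mice each time. In ON bipolar cells it was at 2.27, 1.32 and 1.30 times, and the *Abca4* ratio in the other types but the RPE was 1.32 or less by the other rod genes. Thinned to 2000 UMIs, an *Rbp3* UMI was found in 36.4% of 1049 OFF cone bipolar cells (74.8% unthinned) and 18.1% of 1940 ON bipolar cells (53.9% unthinned), against 4.87% of 2341 amacrine cells (44.0% unthinned). The median depths of these cells were 14409, 15141.5 and 25256 UMIs. Cells that passed more than 1 gate had been left out, and no doublet caller was run.

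**Figure D3:**
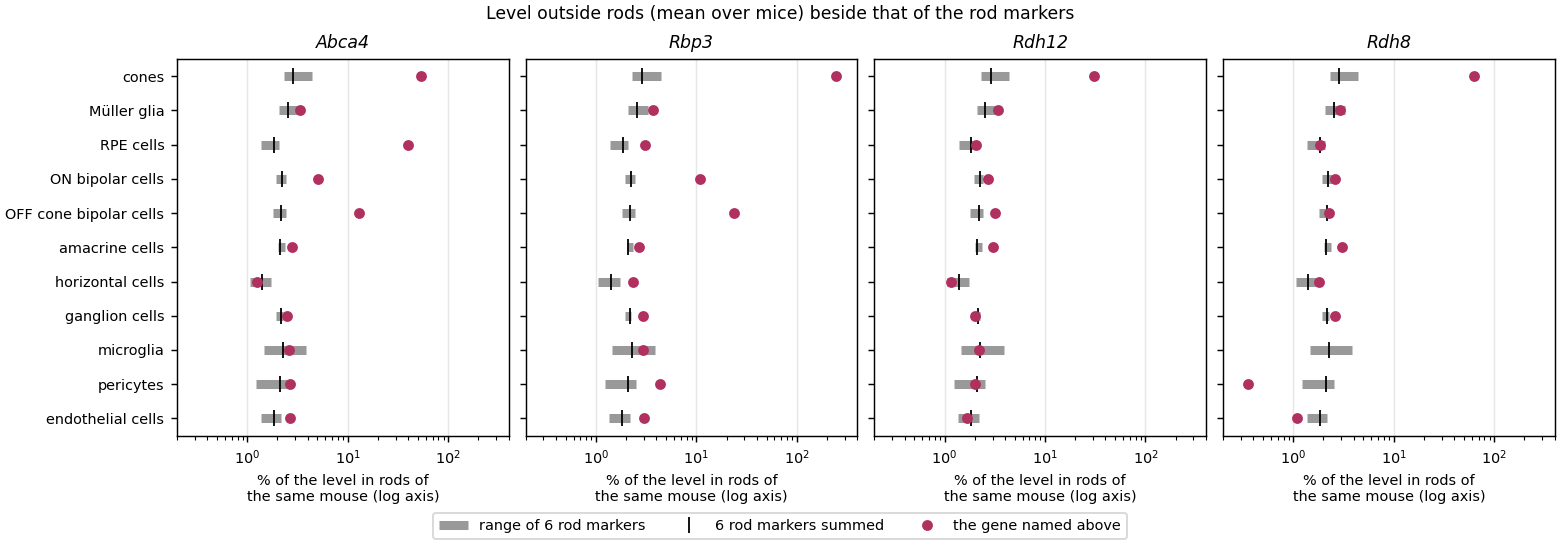
Level of *Abca4*, *Rdh8*, *Rdh12* and *Rbp3* in each type as a percentage of the level in rods of the same mouse (mean over mice, log axis), beside the same percentage for the 6 rod markers, summed (black tick) and singly (grey bar for their range). The summed markers lie between 1.40 and 2.87%, and *Abca4* in RPE cells (39.5%), *Rbp3* in OFF cone bipolar cells (23.7%) and all 4 genes in cones stand above them; *Rdh8* in microglia, at 0, is not drawn.

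In Müller glia, which supply cones with retinoid in a cycle of their own, all 8 members passed the test against rods, beside 76.8% of 16167 genes. *Retsat* was the 1 member that was higher (log2 difference 0.84, 0.32 to 1.36, edgeR adjusted p = 0.00592), at 3.43 ± 2.16 CPM against 1.89 ± 0.47 CPM (SD, n = 9). *Rdh14* was lower by the smallest amount (-0.86, -1.24 to -0.48, edgeR adjusted p = 0.000469), followed by *Rdh11* (-1.16) and *Dhrs3* (-2.36), while *Rbp3* and *Abca4* differed by -4.78 and -5.05. In ON bipolar cells 6 members were lower, beside 69.3% of 15381 genes called, and in amacrine cells 7 were lower, beside 79.7% of 16777. The exceptions were *Retsat* in both types and *Rdh14* in ON bipolar cells, for which the log2 difference was -0.42 (-0.81 to -0.02) with an edgeR adjusted p of 0.0589. In amacrine cells *Rdh11* and *Rdh14* differed by -0.75 and -1.03, *Dhrs3* by -4.61 and *Abca4* by -5.51. The median log2 difference of the 8 members was -3.57 in Müller glia, -2.95 in ON bipolar and -4.96 in amacrine cells, where that of all genes tested was -0.04, -0.04 and -0.06. In cones it was -0.54, where that of all genes was -0.01, and in RPE cells -0.66.

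Across the 12 cell types, the pattern of each member was compared with that of 13980 genes with at least 10 CPM in some type, by the Pearson correlation of log2(CPM + 1) of the type means. The points share mice and stray rod RNA, and no p is given. The genes most like *Rdh12* were *Pdzph1* (r = 0.994), *Impg1* (0.992) and *Pdc* (0.991), and those most like *Rdh8* were *Rhot2* (0.986), *Gm15872* (0.978) and *Ankrd33* (0.977). Among the genes most like *Rbp3* were *Mpp4* (0.976) and *Pcdh15* (0.970), and *Abca4* was most like *Cdhr1* (0.961), *Cnot6* (0.941) and *Ammecr1* (0.940). Among the members themselves the closest pair was *Rdh8* and *Rdh12* (r = 0.953), followed by *Rbp3* and *Rdh12* (0.895). *Rdh11* was most like *Aifm1*, *Slc25a16* and *LTO1* (r from 0.874 to 0.907) and *Dhrs3* most like *B4galt1*, *Gm48768* and *Galnt4* (r from 0.899 to 0.926). Among the genes most like *Rdh14* were *Rnf5* (0.975) and *Nifk* (0.974), and among those most like *Retsat* were *Srprb* (0.950) and *Loxl4* (0.929).

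The promoters are shown of the 4 members whose values in rods and cones lay, in every mouse, above all values in the other types. *Rdh14* met this by its means only. These promoters differ in a short motif, TAATCC, which is the core of the sequence bound by the photoreceptor factor CRX and its relatives. The sequences are the 150 bases before the RefSeq start (GRCm38.p6), all on the plus strand, with the motif in capitals, here read on the opposite strand as GGATTA. They span chr3:122044310-122044459 for *Abca4*, chr14:33953853-33954002 for *Rbp3*, chr12:79208763-79208912 for *Rdh12* and chr9:20818344-20818493 for *Rdh8*.
Abca4: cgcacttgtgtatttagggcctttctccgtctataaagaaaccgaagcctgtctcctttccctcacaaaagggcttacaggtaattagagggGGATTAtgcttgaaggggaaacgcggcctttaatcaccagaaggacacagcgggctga
Rbp3: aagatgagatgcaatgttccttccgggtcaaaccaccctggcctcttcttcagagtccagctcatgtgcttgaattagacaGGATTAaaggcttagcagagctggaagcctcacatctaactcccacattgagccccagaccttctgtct
Rdh12: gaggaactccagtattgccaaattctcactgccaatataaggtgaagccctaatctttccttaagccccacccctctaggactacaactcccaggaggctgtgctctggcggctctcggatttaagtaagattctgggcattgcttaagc
Rdh8: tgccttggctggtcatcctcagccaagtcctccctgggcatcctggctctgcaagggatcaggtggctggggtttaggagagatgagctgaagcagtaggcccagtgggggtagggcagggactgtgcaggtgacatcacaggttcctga
The motif was searched on both strands from 250 bases before to 50 after each start. It was present in 2 of the 8 members, 58 bases before the start of *Abca4* and 69 before that of *Rbp3*, and in 2199 of 27025 genes by the same search (8.14%), or 2320 of 32851 promoters (7.06%), the 8 members having 11 promoters among them. Its absence from the other windows says only that these letters are not in them.

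Within cones, cells were divided by their opsin into 912 with at least as many *Opn1mw* as *Opn1sw* UMIs and 1089 with more *Opn1sw*, as a description of the 9 mice. *Abca4* was 1380 ± 84 and 1430 ± 81 CPM in these groups, *Rbp3* 2686 ± 150 and 2661 ± 219 CPM, and *Rdh12* 97.5 ± 19.8 and 98.3 ± 18.6 CPM (SD, n = 9). The means of these 3 genes differed by less than 1 SD. *Rdh11* was 18.2 ± 3.6 and 23.7 ± 4.5 CPM and *Dhrs3* 15.4 ± 5.1 and 20.6 ± 8.7 CPM, with overlapping ranges.

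Of the members, *Rbp3* varied most from mouse to mouse in rods, and its high values were those of the mice that stood apart. Its level in rods was 679, 1130, 848 and 2364 CPM in control S01 to S04 and 1483, 980, 2407, 1042 and 867 CPM in dKO S05 to S09. The 3 highest values were those of S04, S05 and S07, and none of the other 6 reached them. The mean was 2085 CPM in these 3 mice and 925 ± 160 CPM (SD, n = 6) in the others, a ratio of 2.26. In rods of 3000 to 5000 UMIs alone the values of S04, S05 and S07 were 2036, 1546 and 1592 CPM and the others ran from 507 to 926 CPM, again without overlap. In cones the same 3 mice had 2586 to 2661 CPM, inside the range of the other 6 (2497 to 3021 CPM).

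**Figure D4:**
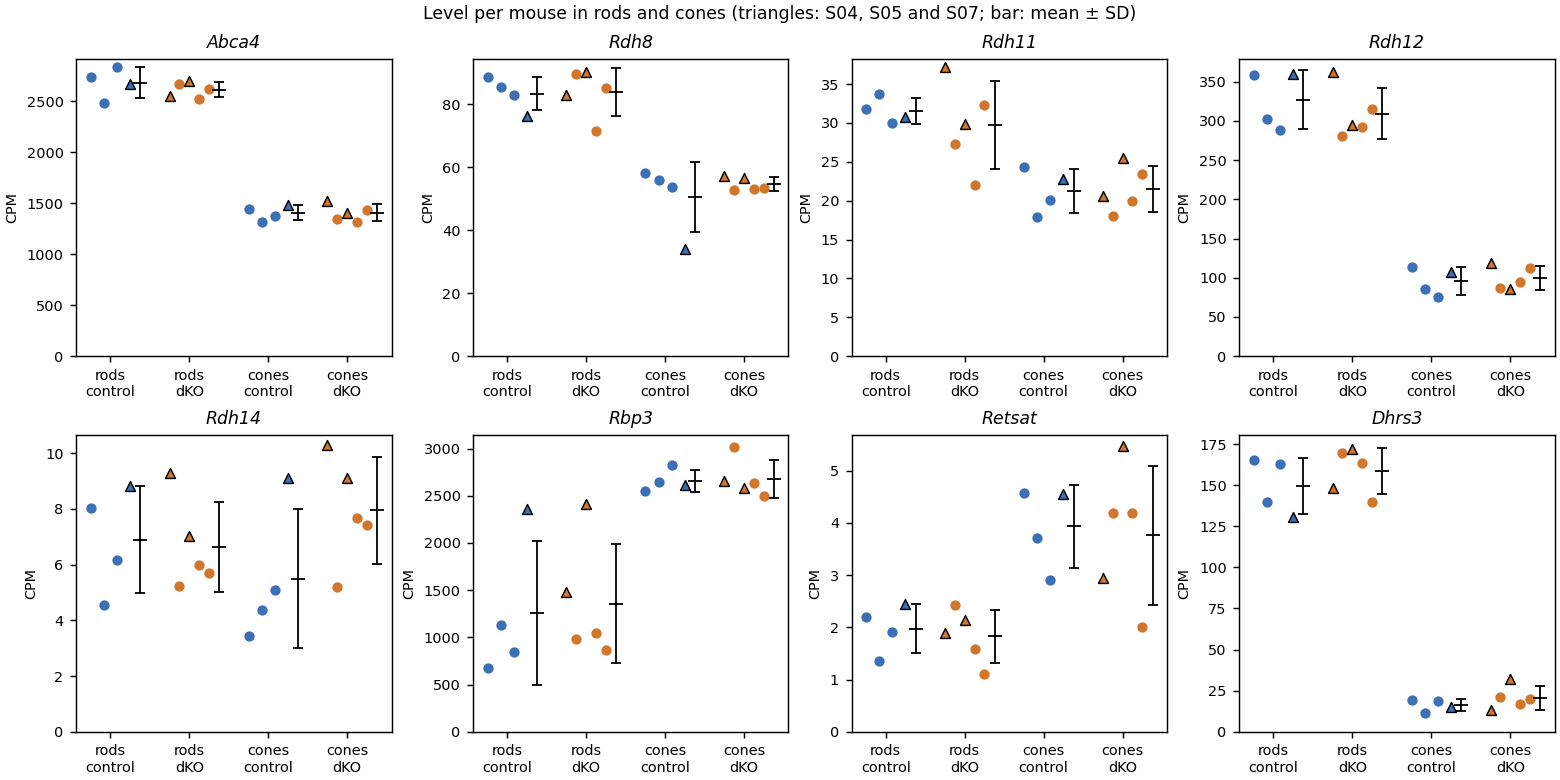
Level of each member (CPM) in rods and cones of each mouse, control and dKO side by side, with triangles for S04, S05 and S07. In rods, the triangles of *Rbp3* (1483 to 2407 CPM) lie apart from the circles (679 to 1130 CPM) in both groups, as do those of *Rdh14* in cones (9.11 to 10.3 against 3.42 to 7.69 CPM). The *Rdh14* values in cones rest on few UMIs.

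Other measures of the rods moved with this split. The summed rod markers were 16913 to 21357 CPM in rods of S04, S05 and S07 and 10261 to 14501 CPM in the others, and ribosomal protein mRNA was 0.10 to 0.13% of rod UMIs against 0.06%. Of 8150 genes with a mean of at least 10 CPM in rods, 691 (8.48%) were higher and 664 (8.15%) lower in all 3 of these mice than in all 6 others, against 3.52% and 3.78% of 8291 genes in cones. Among the members, *Rbp3* in rods and *Rdh14* in cones had ranges that did not overlap in this split, *Rdh14* at 9.11 to 10.3 CPM in the 3 mice and 3.42 to 7.69 CPM in the others. Given the shares of all genes, such a split in rods is not particular to the members. *Rdh14*, at a mean of 6.86 CPM in cones, was not among the 8291 genes counted there. Its cone values rest on few UMIs, 62 and 82 over all mice in the opsin groups described above. Sex-linked RNA, rod share and median depth over all cells differ between the same mice and cannot be told apart, whereas the median depth of the rods overlapped, at 3587 to 4561 UMIs in the 3 mice and 4358.5 to 5469 UMIs in the others. The part of these measures in the *Rbp3* level was not tested.

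The second comparison asked whether the members differed between dKO and control mice. In rods none of the 8 passed the test, and neither did any of the 13795 genes tested (0%; 273 at an unadjusted p below 0.05 with edgeR, and 2 genes with DESeq2, neither of them a member). *Abca4* in rods was 2740, 2487, 2838 and 2671 CPM in the 4 control mice and 2555, 2666, 2702, 2524 and 2616 CPM in the 5 dKO mice. The groups overlapped, and the log2 difference was -0.07 with an interval of -0.23 to 0.08. *Rdh12* was 358, 302, 288 and 360 CPM in control and 362, 280, 295, 292 and 315 CPM in dKO rods, again with overlap and a log2 difference of -0.12 (-0.34 to 0.10). *Rdh8* was 83.4 ± 5.2 CPM in control (SD, n = 4) and 83.9 ± 7.6 CPM in dKO rods (SD, n = 5), with overlap. The log2 difference was -0.02 (-0.21 to 0.17) with trimmed-mean scaling and 0.013 with library size, so that its sign depends on the scaling.

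For *Rbp3* the interval in rods was wide, with a log2 difference of 0.06 (-0.81 to 0.92), and each group held mice of both kinds described above. It ranged from -0.28 to 0.63 as each mouse was left out in turn, so that these data do not fix its direction. The log2 difference of *Rdh11* was -0.12 (-0.42 to 0.18) and that of *Dhrs3* 0.06 (-0.14 to 0.25). *Rdh14* and *Retsat*, both counted at a few CPM, differed by -0.12 (-0.65 to 0.41) and -0.13 (-0.76 to 0.50). The edgeR adjusted p was 0.999999 for all 8, and the control and dKO ranges of all 8 overlapped.

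In cones, too, no member and none of 11316 genes was called (0%; 339 at an unadjusted p below 0.05 with edgeR, and 0 called with DESeq2). *Abca4* was 1447, 1316, 1379 and 1481 CPM in control and 1525, 1348, 1404, 1313 and 1436 CPM in dKO cones, with a log2 difference of -0.03 (-0.19 to 0.13). *Rbp3* was 2547, 2642, 2828 and 2612 CPM in control and 2661, 3021, 2586, 2639 and 2497 CPM in dKO cones, with a log2 difference of -0.01 (-0.18 to 0.15) with trimmed-mean scaling and 0.014 with library size, so that its sign, too, depends on the scaling. Both genes overlapped between the groups, as did the other 6. *Rdh12* and *Rdh8* differed by 0.05 (-0.25 to 0.34) and 0.03 (-0.24 to 0.30), and *Dhrs3* by 0.32 (-0.17 to 0.81). *Rdh11* was 21.3 ± 2.8 CPM in control (SD, n = 4) and 21.5 ± 3.0 CPM in dKO cones (SD, n = 5), and *Retsat* 3.94 ± 0.79 and 3.76 ± 1.33 CPM.

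*Rdh14*, the member with matches to the 5p seed of the deleted miRNAs, was 3.4, 4.4, 5.1 and 9.1 CPM in control and 10.3, 5.2, 9.1, 7.7 and 7.4 CPM in dKO cones. The 3 highest values were again those of S04, S05 and S07, the groups overlapped, and the log2 difference of 0.57 (-0.10 to 1.24) did not pass the edgeR test (unadjusted p = 0.091). Among the other mice, the lowest dKO value (5.18 CPM, S06) lay just above the highest control value (5.10 CPM, S03), from few UMIs each. The difference between the dKO effect in cones and in rods was tested as an interaction. It was 0.62 for *Rdh14* (SE 0.31, edgeR unadjusted p = 0.065), and 0.36 without control S01 (edgeR unadjusted p = 0.253) and 0.76 without control S02 (edgeR unadjusted p = 0.0496), the lowest and highest as each mouse was left out. Without S04, S05 and S07 together it was 0.71 (edgeR unadjusted p = 0.080). No member and no gene of 14458 (0%; 427 at an unadjusted p below 0.05 with edgeR, and 0 called with DESeq2) was called.

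**Figure D5:**
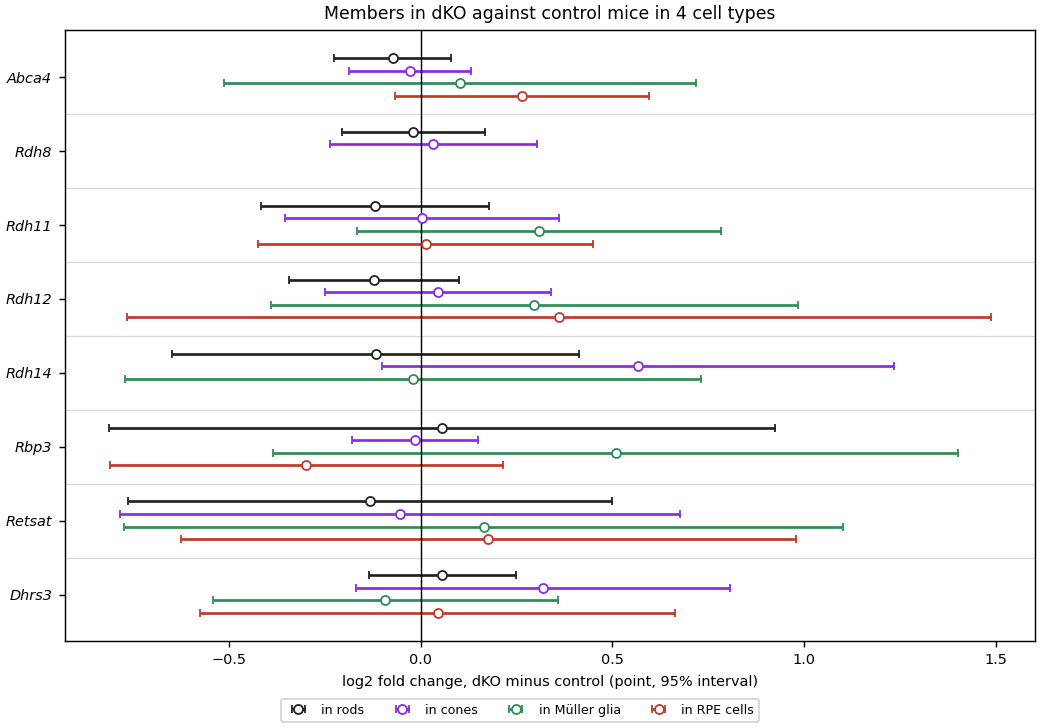
Log2 fold change, dKO minus control, of each member in rods, cones, Müller glia and RPE cells, with 95% intervals from edgeR. All of the intervals drawn in rods and cones include 0, and the widest in rods is that of *Rbp3* (-0.81 to 0.92).

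In the RPE, where Cre acts, 6 members had enough UMIs to be tested, *Rdh8* and *Rdh14* being left out, and none of them or of 9842 genes (0%; 522 at an unadjusted p below 0.05 with edgeR, and 2 called with DESeq2, neither a member) passed. *Abca4* had the RPE levels given above, with 2 of 3 dKO values above all 3 control values and the third below 2 of them, and its log2 difference was 0.26 (-0.07 to 0.60, edgeR adjusted p = 0.979). *Rdh12* was 2.30, 7.22 and 7.93 CPM in control and 8.74, 7.28 and 3.26 CPM in dKO RPE cells, from 3 to 20 UMIs a mouse, with a log2 difference of 0.36 (-0.77 to 1.49) that lay between -0.14 and 0.82 over the alternatives. *Rbp3* was 30.3, 26.8 and 32.2 CPM in control and 24.0, 19.2 and 30.4 CPM in dKO RPE cells, with a log2 difference of -0.30 (-0.81 to 0.21). Both overlapped between the groups, as did *Rdh11*, *Retsat* and *Dhrs3*. *Rdh14*, the member with the seed matches, was 4.21, 3.09 and 2.80 CPM in control S01, S02 and S03 and 6.56, 3.31 and 7.60 CPM in dKO S06, S08 and S09, from 3 to 15 UMIs a mouse. Of these dKO values 2 lay above all 3 control values and the other between them. With no filter on low counts *Rdh14* entered the test, with a log2 difference of 0.71 (-0.36 to 1.78, edgeR adjusted p = 0.820). Only 228 RPE cells, those of the 6 mice with at least 10, stand behind this comparison, from retinas that the labels describe as peeled from the eye cup. In Müller glia 7 members were tested, and none of them or of 13491 genes (0%; 235 at an unadjusted p below 0.05 with edgeR, and 0 called with DESeq2) passed.

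The other genes of retinoid metabolism, a list of 24 that holds the enzymes and carriers of RPE and Müller glia and those of retinoic acid, was counted in the same fits. In RPE cells against rods 12 of the 15 tested were higher and 2 lower, beside 75.6% of all genes called, with a median log2 difference of 5.79 where that of all genes was -0.15. In Müller glia 13 of 20 were higher and 3 lower, beside 76.8%, so that being called there is not particular to the list. The list was chosen to hold genes of RPE and Müller glia, so that higher levels in these types are partly built in. Genes low in rods could also pass the filter on low counts through these types alone. In ON bipolar cells 4 of 16 were higher and 4 lower, beside 69.3%, and in amacrine cells 1 of 18 was higher and 12 lower, beside 79.7%. In cones against rods 3 of 15 were higher and 5 lower, beside 56.3%, so that being called there is not particular to the list. Among these, *Dhrs4*, a carbonyl reductase active on retinal, was 2.16 ± 0.79 CPM in rods and 0.579 ± 0.673 CPM in cones (log2 difference -1.74, edgeR adjusted p = 0.00235). Its counts were low, at 205 UMIs in rods and 13 in cones over the 9 mice. *Lrat*, which esterifies retinol, was 3.92 ± 2.44 CPM in rods and 9.76 ± 3.43 CPM in cones (1.35, edgeR adjusted p = 0.00288). *Rrh*, the RPE opsin peropsin, was 5.41 ± 2.08 CPM in rods and 11.4 ± 2.3 CPM in cones (1.08, edgeR adjusted p = 5.62e-05), all as SD with n = 9. *Lrat* was 1683 CPM in RPE cells, and in the 6 mice with these cells the RPE markers in rods, at 0.304% of their RPE level, would bring 5.08 CPM of it as stray RNA, where rods had 4.93 CPM, and those in cones 2.66 CPM, where cones had 9.50 CPM. *Rrh* was 294 CPM in Müller glia, whose markers would bring 3.65 CPM of it to rods and 2.38 CPM to cones. It was also 297 CPM in RPE cells, whose markers would bring 0.889 CPM of it to rods and 0.462 CPM to cones. In the 6 mice with RPE cells, rods had 6.32 CPM of *Rrh* and cones 10.9 CPM. In dKO against control none of the list passed the edgeR test in rods (15 tested), cones (10), Müller glia (14) or RPE cells (13), with 1 at an unadjusted p below 0.05, in Müller glia.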

How the data were processed

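Retinas of 4 control and 5 dKO mice were dissociated with papain and barcoded by split-pool single-cell RNA sequencing in 8 sublibraries. The authors deposited 1 matrix of raw UMI counts, not normalized, with 37725 genes and 31089 cells and a table that ties each cell to its mouse; per the methods, reads were processed with split-pipe v1.0.4 on GRCm39, and R 4.2.2 and Seurat 4.3.0 are named for the later steps. Depth was 15079143 to 66528160 UMIs per mouse, with a median of 7709 UMIs per cell; intervals and floors from counts cover counting error only.

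Cells were assigned to 12 types by marker genes that exclude the members, needing at least 3 or 4 markers with a UMI and 500 to 2000 CPM of marker UMIs, by type. These thresholds were set from the markers after the data were seen. The leading genes of each gate were checked: microglia and endothelial cells had none of their own listed markers among the top 10 by fold, and no gate had a listed marker of another type there. Raw counts were summed per mouse and type (at least 10 cells) and tested with edgeR 4.0.16 (quasi-likelihood, trimmed-mean scaling, filterByExpr, Benjamini-Hochberg over all genes, threshold 0.05; R 4.3.3), with mouse as a block between types, which pair because both come from the same mouse. Alternatives were DESeq2 1.42.0, library-size scaling, no filter, a stricter gate, each mouse left out, S06 and S07 as 1 mouse, S04, S05 and S07 left out, a Y-linked covariate, no block and, for stray rod RNA, other rod genes or cells of a type that also passed the rod gate. The test of dKO against control was checked on simulated data, and the tests between cell types and the interaction were not. The members and gene lists were chosen with earlier results of these data known. Text names all members, the 3 largest calls in cones against rods of the other retinoid list, any of that list called in a dKO comparison (there was none), and the 3 genes most correlated with a member across types, of which some are not reported here. Of the gene names, 35478 were found in the annotation (GENCODE M39). Promoters and miRNAs came from RefSeq tables.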

Additional observations from a re-analysis of the deposited data

Results flagged for a closer look

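Of 48 sets of values (each member in each group of mice, in rods, cones and Müller glia), 3 held a mouse far from the rest of its group by Dixon's test, a rate near the 1 in 20 that chance gives. All 3 were in Müller glia and in the mice that stood apart. *Abca4* was 129.98 CPM in control S04, where the nearest control was 70.4 CPM, from 51 UMIs in 21 cells. *Rdh8* was 6.72 CPM in dKO S05, where the nearest dKO mouse was 1.67 CPM, from 3 UMIs in 36 cells. *Rbp3* was 136.5 CPM in dKO S07, where the nearest dKO mouse was 53.8 CPM, from 107 UMIs in 66 cells. The summed rod markers in Müller glia were also highest in these mice, at 507 CPM in S04, 578 CPM in S05 and 760 CPM in S07 against 219 to 293 CPM in the other 6, and their part in the 3 values was not tested.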

How the results depend on the processing

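The number of members called was the same in the alternatives run over the 10 comparisons, except in ON bipolar cells against rods, where 6 alternatives called 7 members in place of 6, and the 34 log2 differences of members that passed the test kept their direction and call in all 480 alternative values. The count of all genes called between dKO and control moved from 0 in these cases: with DESeq2 it was 2 in rods and 2 in RPE cells, with no filter on low counts 100 in cones, 86 in RPE cells and 37 for the interaction, and without S04, S05 and S07 it was 2 in cones, 1 in Müller glia and 1 for the interaction. When 1 mouse at a time was left out it ranged from 0 to 1 in rods, cones, Müller glia and the interaction, and from 0 to 5 in RPE cells, where it was 5 without dKO replicate 6 and 3 without dKO replicate 9. The cause was not tested.

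Among the log2 differences given in the report for rods, cones and the comparisons of cell types, the signs that changed were of values that passed no test. In rods (dKO minus control) *Rdh8* was 0.013 with library size, and *Rbp3* was -0.034 with the Y-linked covariate. In cones *Rdh8* was -0.079 without S04, S05 and S07, and *Rbp3* was 0.014 with library size and 0.0215 without S04, S05 and S07. Between cones and rods *Rdh14* was -0.0047 with DESeq2, -0.025 with library size, -0.037 with no filter, -0.039 without S04, S05 and S07 and -0.087 with no replicate block. Between RPE cells and rods *Dhrs3* was -0.19 with library size and -0.067 with no filter. Leaving out 1 mouse at a time gave ranges in rods of -0.063 to 0.034 for *Rdh8*, -0.28 to 0.077 for *Rdh14*, -0.28 to 0.63 for *Rbp3* and -0.28 to 0.051 for *Retsat*. In cones they were -0.062 to 0.013 for *Abca4*, -0.056 to 0.080 for *Rdh8*, -0.058 to 0.14 for *Rdh12* and -0.060 to 0.017 for *Rbp3*. For *Rdh14* between cones and rods the range was -0.062 to 0.16, and for *Dhrs3* between RPE cells and rods -0.080 to 0.21. The cause was not tested. *Rdh14* in ON bipolar cells against rods passed the test under 6 alternatives, at -0.44 with DESeq2, -0.54 with library size, -0.52 with no filter and -0.49 with no replicate block among them. The interaction alternatives, the 2 on *Rbp3* in rods and the 2 on ratios to stray rod RNA were added after seeing the data; 11 of 80 such ratios moved by more than the spread between mice.

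No paired analysis was possible because control and dKO mice share no replicate numbers; dropping the mouse block between cell types changed no call of a member other than that of *Rdh14* in ON bipolar cells. A stricter gate for RPE cells was not run since it left 42 cells, nor was the Y-linked covariate there, and S04, S05 and S07 had too few RPE cells to enter. Low counts limit *Retsat* and *Rdh14*, and 3 mice a group limit the RPE.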
